A study of Mus musculus with 31 samples.

Results

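The 31 genes described here are markers of microglia and macrophages, with Csf1, the growth factor that these cells depend on, and they were measured among 18194 genes in 27 mouse samples. They were taken as a named list, each gene read from 1 probe set that carries no other gene's symbol (where several do, the one with the highest average on the 31 arrays), and all 31 were measured. The samples were C57BL/6 mice or cells from them. The 8 tissues were medulloblastomas of Ptch het p53 wt mice, which carry a defect in 1 Ptch allele and intact p53, and each had a matching line of cancer stem cells (CSC) grown from the same tumour (74, 91, 92, 9, 49, 68, 77 and 83). Tumours 27 and B came from mice that were Ptch het p53 het, and their CSC were measured as 3 technical replicates each, averaged here to 1 value per tumour. Neural stem cells (NSC) of postnatal day 7 came from cerebellar white matter, the IV ventricle and the subventricular zone (SVZ) of the forebrain, with 3 cultures per region. All CSC and NSC were neurospheres, free-floating clusters grown with EGF and FGF2, while a piece of tumour can also hold vessels and other cells of the host. The sources used here do not state the ages of the mice with tumours, or whether the cultures of a region came from separate animals, so p-values measure the spread between these samples only.

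Microglia are the resident macrophages of the brain. They arise from yolk sac progenitors, not from neural stem cells, and persist in the brain through signalling by the receptor Csf1r, which binds Csf1 and Il34. They clear debris and synapses with the help of complement C1q, and sense ADP and the chemokine fractalkine through P2ry12 and Cx3cr1. They also carry receptors such as Trem2 and Fc receptors that signal through the adaptors Tyrobp and Fcer1g. Tumours of the brain can also hold macrophages that come from blood monocytes, which share most of these genes.

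Transcription of many of the genes in macrophages depends on the factor PU.1 (Spi1), whose core site is written GAGGAA. For 22 of the 31 genes RefSeq promoter windows of GRCm38.p6 were at hand. The 250 bases before the start of the 4 genes with the largest array differences between tissue and lines among those with 1 window, and of Csf1, which went the other way, are shown to give the sequence behind the results. They lie at chr3:95526536-95526785 (forward strand), chr10:117282273-117282522 (reverse), chr4:136886201-136886450 (reverse), chr4:136892915-136893164 (reverse) and chr3:107760470-107760719 (reverse), and are printed 5′ to 3′ along the gene with each GAGGAA, or its reverse complement TTCCTC, in capitals.
Ctss: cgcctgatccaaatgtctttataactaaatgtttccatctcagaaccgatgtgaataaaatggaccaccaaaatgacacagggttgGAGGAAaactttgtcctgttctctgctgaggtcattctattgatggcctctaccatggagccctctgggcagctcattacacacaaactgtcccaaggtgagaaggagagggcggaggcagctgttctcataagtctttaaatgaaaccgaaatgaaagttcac
Lyz2: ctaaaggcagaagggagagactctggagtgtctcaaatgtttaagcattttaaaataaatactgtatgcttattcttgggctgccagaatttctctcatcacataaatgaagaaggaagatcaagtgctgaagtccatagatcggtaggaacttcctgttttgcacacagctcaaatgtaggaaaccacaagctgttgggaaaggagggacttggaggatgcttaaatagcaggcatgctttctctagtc
C1qb: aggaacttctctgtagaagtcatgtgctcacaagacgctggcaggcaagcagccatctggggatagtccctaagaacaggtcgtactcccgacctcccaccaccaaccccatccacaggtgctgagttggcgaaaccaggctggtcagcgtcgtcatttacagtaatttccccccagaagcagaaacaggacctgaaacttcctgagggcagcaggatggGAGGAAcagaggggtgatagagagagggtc
C1qc: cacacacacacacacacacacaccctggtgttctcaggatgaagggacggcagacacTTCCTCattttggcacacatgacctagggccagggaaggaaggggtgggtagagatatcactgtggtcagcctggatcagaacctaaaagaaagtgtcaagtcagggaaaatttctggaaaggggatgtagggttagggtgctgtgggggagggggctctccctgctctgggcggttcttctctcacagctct
Csf1: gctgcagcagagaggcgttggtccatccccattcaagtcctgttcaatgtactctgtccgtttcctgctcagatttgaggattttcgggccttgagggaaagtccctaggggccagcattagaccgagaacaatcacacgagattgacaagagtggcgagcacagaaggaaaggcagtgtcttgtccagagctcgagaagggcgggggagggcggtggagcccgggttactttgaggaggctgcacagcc
The letters stand once before Ctss (bases 164 to 159 before the start), once before C1qb (30 to 25) and, on the opposite strand, once before C1qc (193 to 188). The windows of Lyz2 and Csf1 do not hold them. Over both strands, 14 of the 25 windows of the 22 genes held the letters, beside 23.25% of 32851 windows of the same length. The 13 genes with a match were Aif1, C1qb, C1qc, Ccl3, Cd53, Cd68, Ctss, Fcgr3, Itgam, Laptm5, Mrc1, Ptprc and Trem2. A match is a description of letters and not a measured site.

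The values are RMA log2 intensities, so a difference of 1 is 2-fold on the scale of the array. A level was set beside a floor guide, which lay between 2.93 and 3.50. It was the 95th percentile, on the same array, of 132 genes of olfactory and vomeronasal receptors, hair keratin associated proteins and defensins. No detection calls were used, and a level near the guide cannot be told from background. Levels of different genes come from different probes and are not compared with each other. In a piece of tissue, more cells of a type and more RNA per cell cannot be told apart. Ptch1, the gene that is het in all tumours here, stood at 8.26 ± 0.42 (SD, n = 8) in tissue and 6.63 ± 0.75 (SD, n = 8) in the lines.

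All 31 genes differed between the tumour tissues and the lines of the same tumours, and 29 were higher in tissue. The fit was limma with the tumour as a block and Benjamini-Hochberg adjustment over all genes at 0.05, by which 49.6% of all genes differed, 23.1% higher and 26.6% lower in tissue. The median difference of the 31 genes was 3.68 on the log2 scale, and that of all genes was -0.063. For 26 of the 31, every tissue lay above every line, which held for 11.3% of all genes. For 25 of the 31, every tissue also lay above every one of the 19 cultures, against 7.55% of all genes. In tissue, 22 of the 31 were above the floor guide in every sample and 29 in at least 1, while Itgam and Ccl3 were above it in none; of all genes, 57.4% were above it in every tissue and 34.0% in none. The genes that were lower in tissue were Csf1 and Laptm5, and the probe sets of Laptm5 disagreed.

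**Figure D1:**
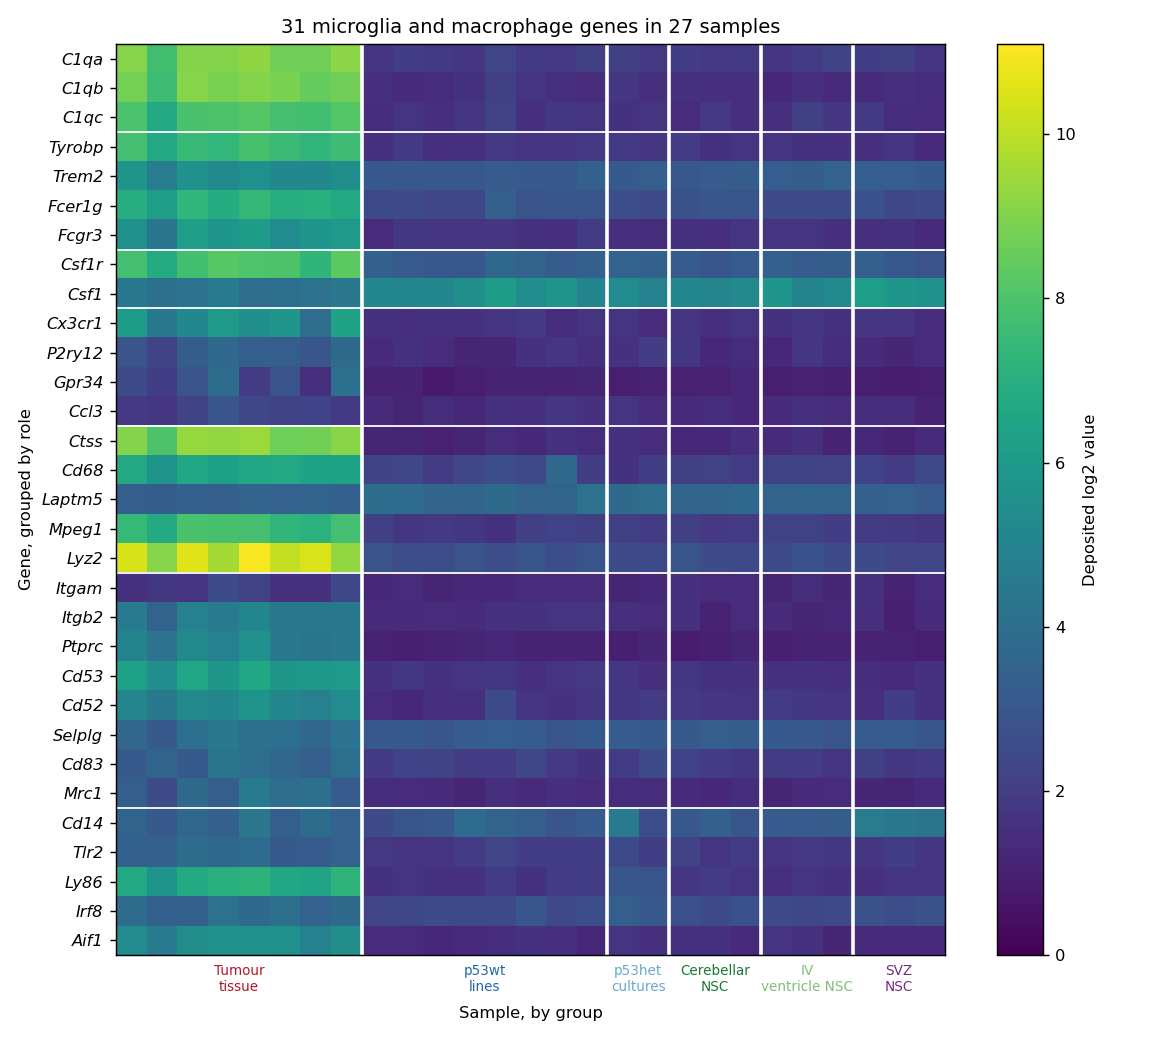
Deposited log2 values (colour) of the 31 genes (vertical, by role) in the 27 samples (horizontal; tissues in the order 74, 91, 92, 9, 49, 68, 77 and 83, lines in the same order, then p53 het tumours 27 and B, then NSC replicates 1 to 3 of each region). The tissue block stands out for most genes, the second tissue (tumour 91) is paler in C1qa, C1qb and C1qc, and Csf1 is brighter in the cultures.

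The 3 subunits of complement C1q, which tags debris and synapses for removal, were at high levels in tissue and below the floor guide in each culture. C1qa was 7.72 in the lowest tissue, 9.04 at the median and 9.24 in the highest, and 1.74 to 2.33 in the lines. C1qb ran from 7.63 through 8.82 to 9.08 in tissue and from 1.33 to 2.12 in the lines. C1qc ran from 6.71 through 7.95 to 8.19 in tissue and from 1.45 to 2.17 in the lines. Tissue 91 was the lowest for each subunit, and the other 7 tissues lay within 9.24 and 8.69 for C1qa. Counted from the floor guide, since the lines give no level, C1qa was at least 48.9-fold higher in tissue, C1qb at least 43.8-fold and C1qc at least 24.2-fold. The adjusted p-values in limma were 7.21e-10, 1.51e-10 and 1.09e-09.

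The adaptors and the receptors that signal through them were also higher in tissue, 4 of 4. Tyrobp (DAP12), the adaptor of Trem2, ran from 6.69 through 7.53 to 7.89 in tissue and from 1.52 to 1.90 in the lines, at least 18.9-fold over the floor guide. Trem2, a receptor for lipids on microglia, ran from 4.69 through 5.39 to 5.75 in tissue and from 3.00 to 3.41 in the lines. The line values of Trem2 lay at the floor guide, and 2 of 8 were above it. Fcer1g, the gamma chain of Fc receptors, was 6.91 ± 0.37 (SD, n = 8) in tissue and 2.74 ± 0.35 (SD, n = 8) in the lines. Fcgr3, a low-affinity receptor for IgG, ran from 4.30 in tissue 91 through 5.83 to 6.21 in tissue 92, and from 1.39 to 1.97 in the lines. In each of the 4, all tissues lay above all lines. A second probe set of Trem2 was not called (0.03 ± 0.10, SE, adjusted p = 0.815 in limma over every probe set).

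Among the lysosomal and granule proteins of phagocytes, 4 of 5 were higher in tissue. Lyz2, the lysozyme of macrophages and neutrophils, ran from 9.10 in tissue 91 through 10.26 to 11.001 in tissue 49, while the lines gave 2.63 to 2.90. This was at least 115-fold over the floor guide (adjusted p = 3.70e-09 in limma). Ctss (cathepsin S), a protease that prepares antigen, ran from 7.997 through 9.09 to 9.42 in tissue and from 1.04 to 1.56 in the lines, at least 53.4-fold over the guide (adjusted p = 3.94e-10 in limma). Mpeg1 (perforin-2), a pore-forming protein, was 7.502 ± 0.417 (SD, n = 8) in tissue and 1.95 ± 0.217 (SD, n = 8) in the lines, at least 19.4-fold. Cd68, a lysosomal membrane protein, ran from 5.73 through 6.53 to 6.72 in tissue. Its values in the lines were 1.96 to 2.65 in 7 of them and 3.71 in the line of tumour 77, which was above the floor guide.

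Laptm5, a lysosomal membrane protein of blood cells, depended on the probe set. The set used here stayed under the 99th percentile of the same gene families in every tissue and line, at 3.30 to 3.63 in tissue, 3.54 to 4.17 in the lines and 3.19 to 3.98 in the other cultures. On it, tissue was lower than the lines by -0.32 ± 0.09 (SE, adjusted p = 0.0172 in limma), in 7 of 8 tumours. Another set ran from 5.45 to 6.80 in tissue (6.11 ± 0.46, SD, n = 8) and from 0.97 to 1.41 in the lines, all under the floor guide, at least 7.42-fold over it (adjusted p = 5.64e-09 over every probe set in limma). The 3 further sets were higher in tissue by 1.16, 0.46 and 0.23. Of these 3, the first was above the 99th percentile in 2 tissues, the next in none, and the last stayed under the floor guide in all tissues and lines. So 4 of the 5 probe sets were called higher in tissue and 1 lower, and 1 of them was above the 99th percentile in all 8 tissues. Of all 47 probe sets of the 31 genes, 39 were higher in tissue, 3 lower and 5 not called, where 22.5% and 25.8% of 34958 probe sets were higher and lower.

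Csf1r and its ligand Csf1 went opposite ways. Csf1r, the receptor tyrosine kinase that keeps microglia alive, ran from 6.81 through 7.89 to 8.29 in tissue and from 3.02 to 3.69 in the lines, a difference of 4.45 ± 0.15 (SE, adjusted p = 8.92e-09 in limma). Its other 2 probe sets were higher in tissue by 2.84 and 1.83. Csf1 ran from 3.98 through 4.22 to 4.53 in tissue and from 4.99 through 5.30 to 6.11 in the lines, with no overlap. Each of the 8 tissues was below its own line, by 0.61 to 2.14 in size, and the difference was -1.16 ± 0.16 (SE, adjusted p = 1.50e-04 in limma). For 11.6% of all genes every tissue lay below every line, and for Csf1 every tissue also lay below all 19 cultures, which held for 6.58% of genes. A second probe set of Csf1 gave -0.98 ± 0.12 (adjusted p = 6.94e-05), and the remaining 2 gave -0.16 and -0.19 (adjusted p = 0.0845 and 0.145 in limma over every probe set).

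The receptors by which microglia sense nucleotides and fractalkine were higher in tissue but at low levels, except Cx3cr1. Cx3cr1, the fractalkine receptor, ran from 3.98 in tissue 77 through 5.66 to 6.40 in tissue 83 and from 1.46 to 1.82 in the lines. A second probe set of Cx3cr1 ran from 2.02 to 3.56 in tissue, and its difference was 1.30, against 3.81 for the set used. P2ry12, a receptor for ADP that marks resting microglia, was above the floor guide in 5 of 8 tissues, at 2.28 to 3.84, and was 1.13 to 1.77 in the lines. Gpr34, a receptor for lysophosphatidylserine, was above the guide only in tissues 9 and 83 (3.93 and 4.04), and the other tissues gave 1.48 to 2.84. Its lines gave 0.80 to 1.15. Ccl3, a chemokine of activated macrophages, was 1.75 to 2.94 in tissue and 1.16 to 1.77 in the lines, all at or under the floor guide. The 4 were called higher in tissue (adjusted p between 5.25e-07 and 7.74e-04 in limma), but the difference of Ccl3 lies in a range where these arrays give no level.

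The surface proteins of leukocytes were called higher in tissue, 8 of 8. Cd53, a tetraspanin, ran from 5.43 through 5.95 to 6.60 in tissue and from 1.51 to 1.84 in the lines. A second probe set of Cd53, at 0.87 to 1.33 in tissue, was not called (-0.04 ± 0.07, SE, adjusted p = 0.710 in limma over every probe set). Cd52, a small glycoprotein of leukocytes, ran from 4.46 through 5.15 to 5.75 and from 1.28 to 2.51, where the highest line was that of tumour 49. Ptprc (CD45), the phosphatase found on all leukocytes, ran from 4.23 through 4.66 to 5.63 in tissue and from 0.95 to 1.25 in the lines, and Itgb2, the beta chain of leukocyte integrins, from 3.54 through 4.52 to 5.07 and from 1.35 to 1.68. A second probe set of Ptprc, at 1.07 to 1.43 in tissue, was not called (0.02 ± 0.07, SE, adjusted p = 0.846 in limma over every probe set). Itgam (CD11b), the alpha chain that pairs with Itgb2, was 1.57 to 2.54 in tissue and stayed below the floor guide in every sample. Mrc1 (CD206), a mannose receptor found mainly on macrophages at the borders of the brain, was 2.59 to 4.58 in tissue and 1.14 to 1.53 in the lines. Cd83, a glycoprotein of activated antigen-presenting cells, was 3.13 to 4.32 in tissue and 1.63 to 2.37 in the lines. Selplg, the ligand of selectins, was 3.10 to 4.46 in tissue and 2.88 to 3.31 in the lines, and these groups overlapped.

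The 5 genes of innate sensing, regulation and the cytoskeleton were called higher in tissue, with Cd14 near the threshold. Ly86 (MD-1), a partner of the receptor RP105, ran from 5.73 through 6.77 to 7.21 in tissue and from 1.59 to 2.02 in the lines, at least 11.3-fold over the guide. Aif1 (Iba1), the actin-binding protein used to stain microglia, ran from 4.64 through 5.49 to 5.70 and from 1.24 to 1.64, at least 4.34-fold. Tlr2, a receptor for bacterial lipoproteins, was 3.14 to 3.91 in tissue and 1.69 to 2.33 in the lines. Irf8, a transcription factor of the macrophage lineage, was 3.39 to 4.16 in tissue and 2.34 to 2.98 in the lines. Cd14, a co-receptor for bacterial lipopolysaccharide, was 3.11 to 4.42 in tissue and 2.54 to 3.86 in the lines, and the groups overlapped. It was higher in tissue in 6 of 8 tumours, by 0.44 ± 0.17 (SE, adjusted p = 0.0480 in limma). That call was lost when 6 of the 8 tumours were left out in turn (adjusted p from 0.00937 to 0.115 over the 8), when arrays were centred on their medians (adjusted p = 0.0897), quantile normalized (0.175) or fitted without the tumour block (0.0636), and among the 4 tumours with 1 shared date mark (0.291) and the 4 with different marks (0.0952).

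**Figure D2:**
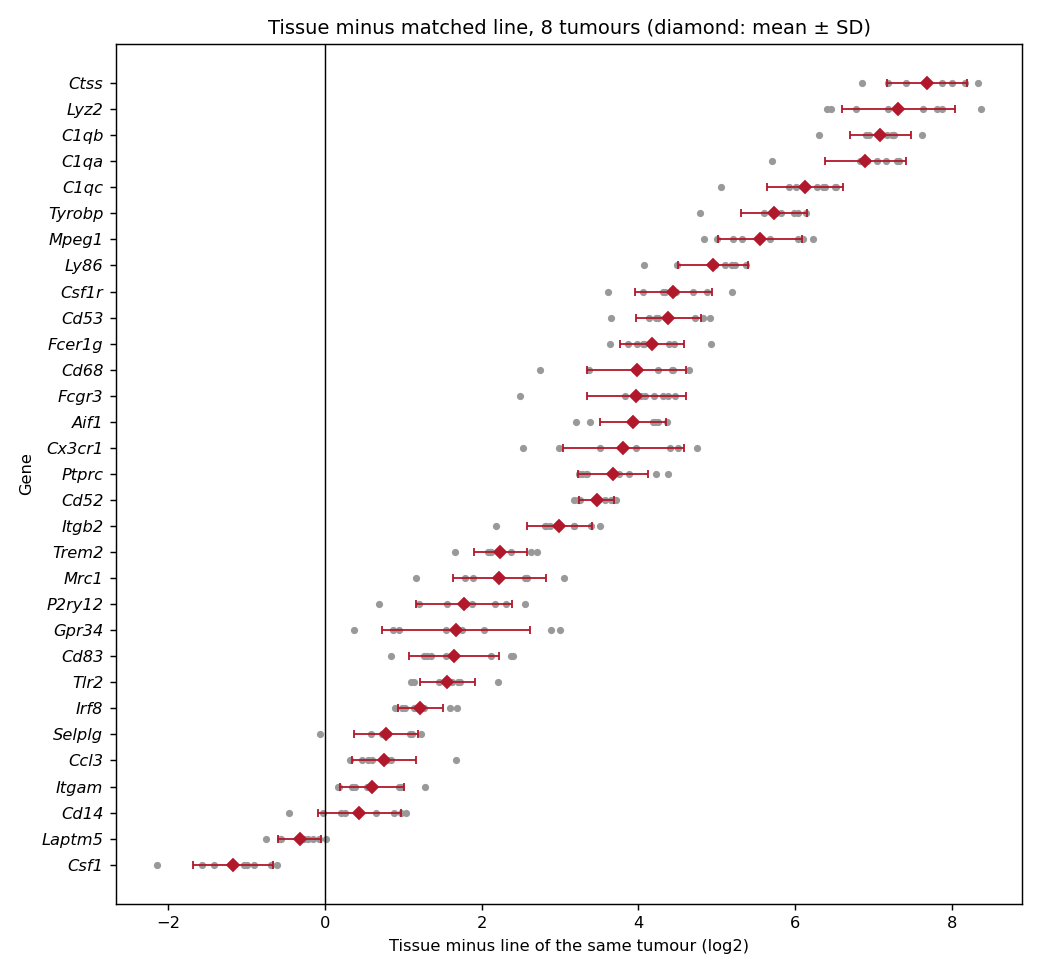
Difference between each tissue and the line of the same tumour (horizontal, log2) for the 31 genes (vertical). Grey points are the 8 tumours, and diamonds with bars are the mean ± SD. In 27 genes all 8 points lie right of 0, and for Csf1 all lie left of it.

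Date marks in the sample names are shared by tissue and line for tumours 74, 91, 92 and 9 and differ for the other 4. Among the tumours with a shared mark 28 of the 31 genes were called higher in tissue and 2 lower, where 40.2% of all genes were called in either direction. Among those with different marks 27 were higher and 1, Csf1, lower, where 32.6% of all genes were called. Against the 6 hindbrain NSC cultures (cerebellar and IV ventricle), the same 8 tissues gave 29 of 31 genes higher, where 23.7% of all genes were, and Csf1 lower (-1.03 ± 0.12, SE, adjusted p = 1.85e-06 in limma), where 28.7% were. Laptm5, on the probe set used, was not called (-0.14 ± 0.07, adjusted p = 0.0957 in limma). Both comparisons share the tissues, so the second is not independent of the first.

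In the cultures most of the genes stayed under the floor guide. Above the floor guide in no sample were 23 of the 31 in the p53 wt lines, and 25 of the 31 in the p53 het cultures and in each of the 3 NSC regions. Over all genes, 35.6% were above it in none of the 8 lines. In the other cultures this share was 38.1% (p53 het), 38.2% (cerebellar), 37.9% (IV ventricle) and 37.2% (SVZ). The genes above it in at least 1 line were Csf1r, Cd68, Laptm5, Trem2, Fcer1g, Cd14, Selplg and Csf1, and only Laptm5 and Csf1 were above it in all 8. With the 99th percentile of the same families (4.16 to 4.96) as the guide, Csf1 alone was above it in the lines, and Csf1 with Cd14 in the p53 het and SVZ cultures. A lower guide was the highest Y-linked value in samples without Y signal (1.57). By it 5 of the 31 were above the guide in none of the lines and 15 in all 8. Of all genes, 7.96% were above this lower guide in none of the lines and 79.6% in all 8. Between the p53 wt lines and hindbrain NSC, 0 of 31 genes were called in limma, while 9.56% of all genes were. An unadjusted p under 0.05 in limma was found for 0 of 31 and for 22.9% of all genes. Most of the 31 lay under the floor guide on both sides, so these counts say little about how alike lines and NSC are. The mean of the 31 genes ran from 1.99 to 2.30 over the lines and from 2.02 to 2.13 over hindbrain NSC, against 4.75 to 5.81 over the tissues.

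Between the p53 het and the p53 wt cultures, 2 of 31 genes were called, both higher in p53 het, where 14.5% of all genes were higher. Ly86 was 2.98 and 2.89 in tumours 27 and B and 1.59 to 2.02 in the 8 lines, a difference of 1.17 ± 0.12 (SE, adjusted p = 1.68e-06 in limma). Irf8 was 3.36 and 3.10 in tumours 27 and B and 2.34 to 2.98 in the lines, a difference of 0.68 ± 0.13 (SE, adjusted p = 8.83e-04 in limma). For both, each p53 het tumour lay above all lines, as did 13.5% of all genes. A second probe set of Irf8 gave 3.31 and 2.82 in the p53 het tumours and 1.86 to 2.18 in the lines. The values of Ly86 remained below the floor guide, and those of Irf8 were above it in tumour 27 only. Over the whole list, 6 of the 31 genes were above the guide in at least 1 p53 het tumour: Csf1r (3.52 and 3.43 in tumours 27 and B), Laptm5 and Csf1 in both, and Trem2, Cd14 and Irf8 in 1. Of all genes, 38.1% were above the guide in neither tumour. The mean of the 31 was 2.26 and 2.16 in these tumours, within the 1.99 to 2.30 of the lines, and C1qa, Ptprc and Tyrobp were under the guide in both. The part of other cells in the levels of Ly86 and Irf8 was not tested. Cd14 was 4.59 in tumour 27, above all 8 lines, and 2.66 in tumour B, within their range of 2.54 to 3.86, and was not called (0.45 ± 0.35, adjusted p = 0.425 in limma). Without tumour B it was called (1.41, adjusted p = 0.00528), and without tumour 27 it was -0.52 and not called. The p53 het arrays share no date mark with the other groups, so mark and genotype cannot be told apart, and 2 tumours stand for the genotype.

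Among the NSC, Cd14 differed by region. It was 4.68, 4.43 and 4.25 in SVZ cultures, 3.24, 3.20 and 3.28 in IV ventricle cultures and 3.00, 3.40 and 2.93 in cerebellar cultures. All SVZ cultures lay above all hindbrain cultures; IV ventricle lay wholly below SVZ for 7.62% of all genes, and cerebellar for 9.42%. IV ventricle was lower than SVZ by -1.22 ± 0.15 (SE, adjusted p = 0.00584 in limma), 1 of 31 genes called lower where 0.412% of all genes were. Cerebellar was lower than SVZ by -1.34 ± 0.15 (SE, adjusted p = 0.00350 in limma), again 1 of 31, where 0.533% were. These comparisons share the SVZ cultures. Csf1 was 6.205, 5.83 and 5.69 in SVZ, 5.79, 5.03 and 5.30 in IV ventricle and 5.15, 5.07 and 5.25 in cerebellar cultures. Its difference between cerebellar and SVZ cultures, -0.76 ± 0.19 (SE), was not called (adjusted p = 0.121 in limma). It was called when the fit held a term for the date mark (adjusted p = 0.0357), and without replicate 2 of IV ventricle (0.0456). For IV ventricle against cerebellar cultures, limma gave 0 of 31 genes and 0% of all genes, and 1 of 31 had an unadjusted p under 0.05, as did 3.07% of all genes. In the SVZ cultures, 6 of the 31 genes were above the floor guide in at least 1 culture: Csf1r in 2 of 3, Trem2 in 3 of 3, and Laptm5, Cd14, Selplg and Csf1. The same 6 genes were above it in at least 1 cerebellar and 1 IV ventricle culture. Of all genes, 37.2% were above it in no SVZ culture, 38.2% in no cerebellar and 37.9% in no IV ventricle culture. The mean of the 31 was 2.00 to 2.15 in SVZ and 2.02 to 2.13 in hindbrain cultures. The part of other cells in the level of Cd14 was not tested.

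**Figure D3:**
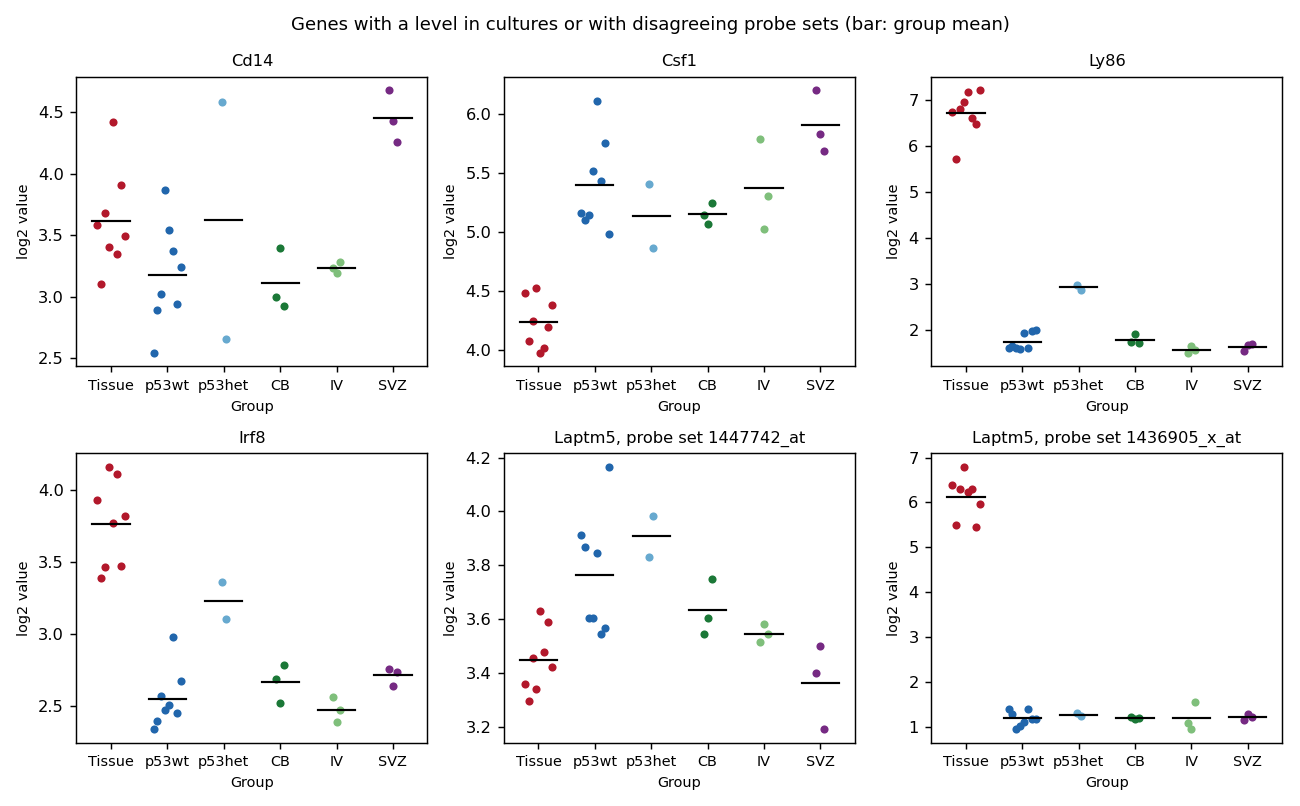
Deposited log2 values (vertical) of Cd14, Csf1, Ly86 and Irf8 and of 2 probe sets of Laptm5 in each group (horizontal: 8 tissues, 8 p53 wt lines, 2 p53 het tumours, and 3 cerebellar (CB), 3 IV ventricle and 3 SVZ NSC). Points are samples and bars are group means. Cd14 is highest in SVZ NSC and in p53 het tumour 27, Csf1 is lowest in tissue, Ly86 is raised in both p53 het tumours, and the 2 probe sets of Laptm5 go opposite ways between tissue and lines.

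The spread of the genes over the 8 tissues leaned on tissue 91. The median SD of the 22 genes above the floor guide in every tissue was 0.428, beside 0.195 for the 10427 other genes above it in every tissue. Without tissue 91 these medians were 0.278 and 0.184. Tissue 91 was the lowest for 25 of the 31 genes and for 20 of these 22, where it was the lowest for 18.5% of the other genes. The 31 genes of tissue 91 lay at a median of -0.86 from the median of the other 7 tissues, while all genes lay at -0.026. For the 22 genes above the floor guide in every tissue it was -0.93, beside 0.0037 for the 10427 others. The mean of the 31 genes was 4.75 in tissue 91 and 5.26 to 5.81 in the others, with the highest in tissue 49, which was the highest for 12 of the 31. Tissue 91 shares its date mark with tissues 74, 92 and 9, whose means were 5.49, 5.62 and 5.68. For 25 of the 31 genes tissue 91, like the other tissues, still lay above all 19 cultures. Csf1, Laptm5, Itgam, Ccl3, Selplg and Cd14 were the genes for which not every tissue did. For Itgam, tissue 91 (1.78) was above all cultures, and tissue 68 (1.57) was just below the highest culture (1.5712).

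**Figure D4:**
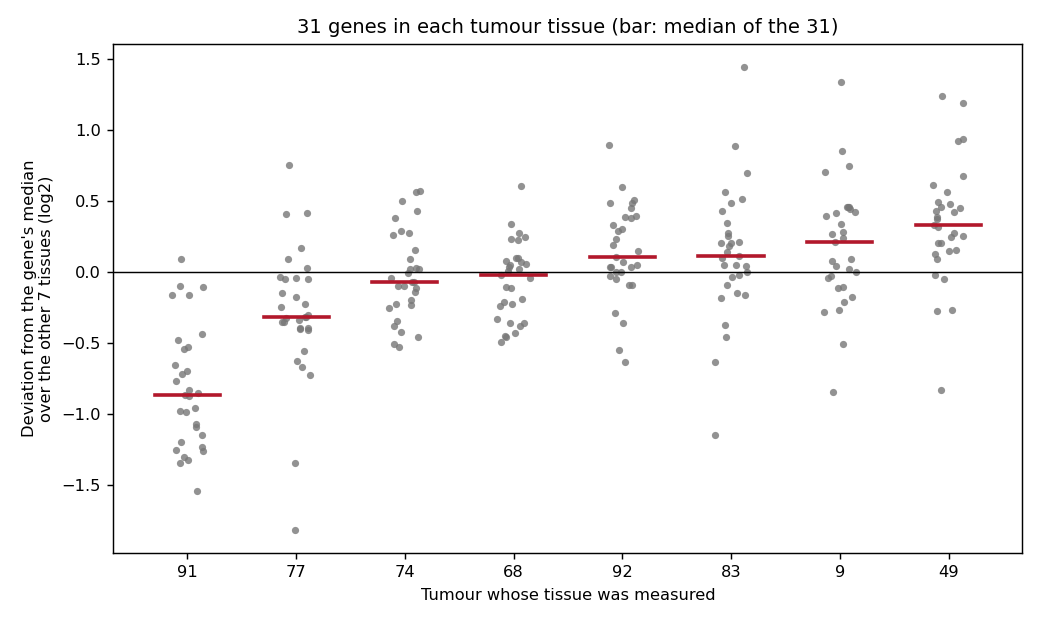
Deviation of each of the 31 genes (points, log2, vertical) in each tumour tissue (horizontal) from the gene's median over the other 7 tissues, with the median of the 31 as a bar. Tissue 91 lies lowest, at -0.86, and tissue 49 highest, at 0.33.

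The genes did not all follow the same order of tissues. Cx3cr1, P2ry12 and Gpr34 were highest in tissue 83 (6.40, 3.84 and 4.04), and tissue 9 gave 5.98, 3.69 and 3.93. Tissue 77 was the lowest for Cx3cr1 (3.98) and Gpr34 (1.48). Lyz2, Mrc1 and Ptprc were highest in tissue 49 (11.001, 4.58 and 5.63). Lyz2 was 10.47 in tissue 77 and 9.30 and 9.61 in tissues 83 and 9, while Gpr34 was 1.48, 4.04 and 3.93 in these, and Mrc1 was 4.10 in tissue 77 and 3.22 and 3.35 in tissues 83 and 9. Gpr34 and Cx3cr1 had the widest spread of the 31, with SDs of 0.91 and 0.83, followed by Lyz2 (0.67), Mrc1 (0.62) and Fcgr3 (0.61). These genes were picked for their pattern after the values were seen, and no test was made of it.

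**Figure D5:**
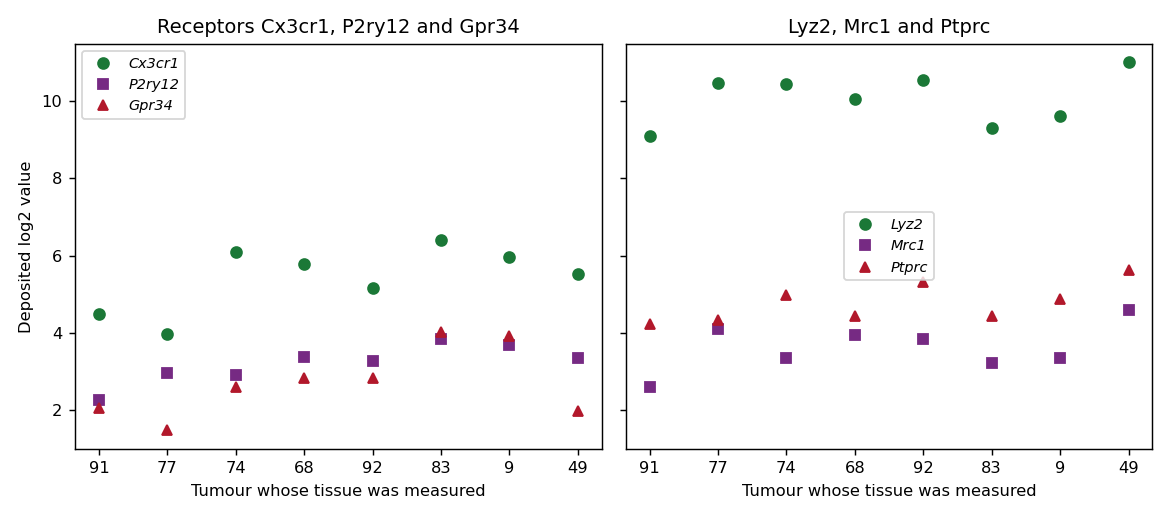
Deposited log2 values (vertical) of Cx3cr1, P2ry12 and Gpr34 (left) and Lyz2, Mrc1 and Ptprc (right) in the 8 tissues (horizontal, ordered by the median deviation of the 31 genes). The 3 receptors peak in tissue 83, with tissue 9 close by, and Lyz2, Mrc1 and Ptprc in tissue 49.

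Markers of blood cells varied over the same tissues. The 8 monocyte genes measured had means of 3.20 in tissue 9 to 4.41 in tissue 49. Tissue 91 was the lowest for 3 of the 8 and the highest for 1, and tissue 9 was the lowest for 4. Chil3 (Ym1), a lectin of monocytes and neutrophils, was 5.65 and 4.61 in tissues 92 and 49, 3.79 in tissue 77 and 1.498 in tissue 91. Vcan of the same list went the other way, at 8.13 in tissue 91 and 6.38 to 7.44 in the others. Of the neutrophil list, S100a8 and S100a9, calcium-binding proteins of neutrophils and monocytes, were 6.82 and 6.46 in tissue 49 and 2.31 and 2.34, under the floor guide, in tissue 91, and the other 6 tissues gave 5.05 to 6.29 for S100a8. Of the same list, the granule genes Mpo, Elane, Camp, Ngp and Ltf were between 1.19 and 2.93 in all tissues. Mmp8, Fcnb and Cxcr2 were between 1.38 and 2.22. Mmp9 was 2.90 to 3.60, and was above the floor guide in tissues 49 (3.60) and 92 (3.32). The monocyte and neutrophil genes named in this paragraph were chosen after their values were seen. The means of the 16 lymphocyte genes were 1.88 to 2.22 and of the 4 erythroid genes 1.53 to 1.93. Ccr2, the chemokine receptor of monocytes, was 3.53 to 4.14 in tissue and 3.70 to 3.96 in the lines and was not called. The part of blood cells in the levels of the 31 genes was not tested.

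Other genes of the same cells, from lists that share no gene with the 31, were compared between tissue and lines in the same fit. In that fit 23.1% of all genes were higher and 26.6% lower in tissue. Of 23 further microglia genes, 12 were higher, 1 lower and 10 not called, and their median difference was 0.38. Fcrls, a scavenger receptor of mouse microglia, was 5.72 ± 0.42 (SD, n = 8) in tissue and 2.22 ± 0.25 (SD, n = 8) in the lines. Adgre1 (F4/80), C3ar1, a receptor for complement C3a, and Rnase4, a ribonuclease, were higher by 2.20, 2.83 and 3.87. Sall1, a transcription factor of microglia and also of neural progenitors, was lower (4.22 in tissue and 5.75 in the lines). Of 17 genes that act downstream of the adaptors and Fc receptors, 14 were higher and 0 lower, with a median of 0.56, among them Coro1a, an actin-binding protein of leukocytes (3.74), Arhgdib (2.38), Rac2 (1.21) and the inhibitory receptor Fcgr2b (1.18). Fcgr2b was above the floor guide in all 8 lines, Rac2 in 4, Coro1a in 2 and Arhgdib in none, and a difference against lines under the guide is one of array values and not a measured fold. Of 8 genes for ligands and receptors that act on microglia, 3 were higher and 2 lower, with a median of 0.051, beside the 23.1% and 26.6% of all genes. The receptor Tgfbr2 and its ligand Tgfb1 were higher by 2.08 and 0.95, while Cx3cl1, the ligand of Cx3cr1, was lower by 0.39 in size (adjusted p = 0.00437 in limma), and Flt3, a receptor of blood progenitors, by 0.24 in size. Il34, the other ligand of Csf1r, was 1.84 to 2.79 in tissue and 1.77 to 2.37 in the lines, under the floor guide, and was not called.

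Of 19 genes raised in activated microglia, 15 were higher in tissue and 1 lower, with a median of 1.21. Of all genes, 23.1% were higher and 26.6% lower, for this list and those that follow. Lgals3 (galectin-3) was 6.62 in tissue and 1.44 in the lines, Clec7a (dectin-1) 5.53 and 1.97, Cd74, the invariant chain of MHC class II, 5.46 and 2.79, and Ctsb (cathepsin B), which the lines also held, 10.08 and 8.62. Axl, a receptor tyrosine kinase, was the 1 lower gene (-0.52). Of 10 genes of border-associated macrophages, 7 were higher and 1 lower, with a median of 0.75. Ms4a7 was 6.29 in tissue and 2.57 in the lines, Stab1 4.49 and 2.25 and Ms4a6c 3.23 and 1.76, while Cd163 was 1.69 and 2.29, under the floor guide. Clec10a was higher by 1.06. Of 8 monocyte genes 2 were higher (Chil3 and Cd300a) and 2 lower (Fn1 and Vcan, matrix genes that other cells also make). Of the remaining lists, 3 of 11 neutrophil, 1 of 16 lymphocyte, 0 of 4 erythroid, 11 of 11 endothelial, 9 of 12 neuron, 4 of 9 astrocyte and 4 of 8 oligodendrocyte genes were higher in tissue, beside 23.1% of all genes. Lower in tissue were 3 lymphocyte and 2 astrocyte genes, with list medians of -0.062 and -0.32, and none of the other 5 lists. So genes of vessels and neurons were higher in tissue as well, and their part in the levels of the 31 genes was not tested. Tissue 91 was the lowest of the 8 for 18.5% of all genes. In the lists this held for 17 of the 23 further microglia genes, 12 of the 19 activation genes, 8 of 17 adaptor and Fc receptor signalling, 5 of 10 border macrophage and 3 of 8 monocyte genes. It also held for 6 of 11 neutrophil, 6 of 12 neuron, 4 of 9 astrocyte, 3 of 8 oligodendrocyte, 3 of 16 lymphocyte, 1 of 8 ligand and receptor, 1 of 4 erythroid and 0 of 11 endothelial genes. Tissue 9 was the lowest for 8 of the 17 signalling and 4 of the 8 monocyte genes.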

How the data were processed

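Total RNA of each sample was labelled with biotin and read on 1 Affymetrix mouse array, per the labels. The authors deposited log2 values per probe set made with RMA, per the submitters' processing notes; the sources used here name neither its version nor detection calls. Of 45101 probe sets, 34958 carried 1 gene symbol and gave 18194 genes (probe set with the highest mean over 31 arrays). All genes were kept whatever their signal. The members and lists were chosen with earlier results of these data known. Comparisons used limma 3.58.1 in R 4.3.3, two-sided, adjusted over all genes at 0.05: tissues against lines blocked by tumour (7 residual df), tissues with NSC (13), the 19 cultures together (14) and the 9 NSC (6). The fits were tested on simulated data. Named genes outside the 31 were Ptch1 and, for each microglia, macrophage, signalling or monocyte list, the called genes ranked by p, at most 4 in the commoner direction and 2 in the rarer, and the 10 genes that followed the 31 most closely over the tissues. The exceptions are said to be chosen after their values were seen, or are given with their list: Il34, Ccr2, Chil3, S100a8, S100a9 and the other neutrophil genes. No 2 arrays held identical values. NSC replicate numbers correlated in their deviations for IV ventricle with SVZ (0.32, 0.25 and 0.32) and cerebellar with SVZ (0.18, 0.34 and 0.17), not for IV ventricle with cerebellar (0.38, -0.14 and -0.06); whether a number stands for an animal is not stated. Alternatives were other scalings, probe set means, a dim-gene filter, a trended robust prior, blocks and date marks, other floor guides and each sample left out. Figures used Python 3.11.15 and matplotlib 3.10.9.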

Additional observations from a re-analysis of the deposited data

Results flagged for a closer look

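In the 8 tissues and the 8 lines, each gene's highest and lowest sample was set against the gap to the nearest other sample. By this rule 9 of 62 gene groups held a sample that stood apart. The rule flags about 1 in 20 groups of independent normal values, but these genes share samples and many vary together. The share over all genes was not computed, so 9 of 62 is not read as an excess. Of the 9, 6 were tissue 91 as the lowest of the 8: C1qa (7.72), C1qb (7.63), C1qc (6.71), Cd68 (5.73), Fcgr3 (4.30) and Itgb2 (3.54). In the lines, that of tumour 49 stood highest for C1qb (2.12) and Cd52 (2.51), and that of tumour 77 for Cd68 (3.71), the only 1 of the 3 above the floor guide.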

How the results depend on the processing

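The call of 29 of 31 genes higher in tissue than in lines stayed at 28 to 29 with any tumour left out, and the count of lower genes at 2. Leaving out genes dimmer than the median of all genes kept 3 of the 31, of which 2 were higher and 1 lower against the lines, 2 higher against hindbrain NSC, 0 higher in p53 het cultures and 0 lower in either comparison with SVZ; by the same filter tissue 91 was the lowest for 2. With the mean of all probe sets 1 gene was lower in tissue than in lines, since Laptm5 turned to 1.29 (1.38 against hindbrain NSC); fitted on their own, its other 4 probe sets gave 4.92, 1.16, 0.46 and 0.23. Among tumours with different date marks 27 were higher and 1 lower. Under quantile normalization 2 genes were lower against hindbrain NSC and 1 lower in p53 het cultures. Leave-one-out counts were 28 to 29 higher and 1 to 2 lower against hindbrain NSC (2 without tissue 49), 2 to 3 higher in p53 het cultures, and 1 to 2 lower for cerebellar against SVZ (2 without IV ventricle replicate 2, and 2 with a term for the date mark). Without tumour 27 the p53 het difference of Cd14 was -0.52, and without tumour B it was called at 1.41. With the highest Y-linked value in samples without Y signal (1.57) as the guide, 5 genes in the lines, 6 in p53 het, 5 in cerebellar, 8 in IV ventricle and 9 in SVZ cultures were above it in no sample. The replicate block in the NSC comparisons changed no call of the 31 genes (0 and 1 lower as reported, Cd14 in both comparisons with SVZ). Of 1326 values of single genes under all alternatives, 1296 kept direction and call, 18 lost the call, 5 gained it and 7 reversed. Some alternatives cannot move a difference, so the total is not a measure of robustness. Examples are a left-out culture of a group outside the comparison, and probe set means for the 22 genes with 1 probe set. Array number and signals near background limit what the low genes can show.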

Other observations

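Across the 8 tissues, the 10 genes outside the 31 whose levels followed the mean of the 31 most closely held 3 from the lists of microglia and phagocyte genes. Tmem119, a microglia marker at 3.06 to 3.93, gave a Pearson r of 0.940 and a Spearman rho of 0.881, Coro1a, at 5.66 to 7.30, gave 0.938 and 0.857, and Apoe, a lipid carrier of astrocytes and activated microglia at 10.43 to 11.52, gave 0.946 and 0.833. Gria2, a glutamate receptor subunit of neurons, gave 0.947 and 0.905, and Unc5d, a netrin receptor, 0.951 and 0.857. The others were Efhd1, C030004G16Rik, Efcc1, Gp6 and Selenop. Of these, C030004G16Rik (1.12 to 1.40) and Gp6 (1.73 to 2.12) stayed under the floor guide in all tissues. Efcc1 (2.88 to 3.48) and the lowest values of Tmem119 lay near it. Without tissues 91 and 77 Pearson's r was 0.661 for Tmem119, 0.895 for Coro1a, 0.406 for Apoe, 0.974 for Gria2 and 0.787 for Unc5d. It was 0.446 for Efhd1, 0.797 for C030004G16Rik, 0.923 for Efcc1, 0.624 for Gp6 and 0.382 for Selenop. So the relation of Apoe, Tmem119, Efhd1, Gp6 and Selenop rests in part on those tissues. The 10 were selected as the highest of all genes over 8 samples that share arrays with the 31, so the values are a description and no p is given.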
